A study of Mus musculus with 7 samples.

Results

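The genes described here encode the proteases, cofactors, receptors, inhibitors and structural proteins of blood coagulation, fibrinolysis and the complement system. Their messages were measured on Agilent 60-base oligonucleotide arrays in whole liver of 4-week-old mice. They were chosen by name: 46 genes were listed, and all 63 non-control probes that carried 1 of these names on the array were taken. Each of the 46 genes had a probe, against 55681 non-control probes on the array in all. After the filter on dim probes, 44 of the 46 genes were tested, among 18755 tested genes. The study crossed mice with a floxed Rbpj allele to a line in which the Alfp promoter drives Cre recombinase in the liver, on the C57BL/6J background. The 3 Rbpj-/- animals were AlfpCre+ Rbpj flox/flox (Rbpj -/-_N3, Rbpj -/-_N5 and Rbpj -/-_2866) and the 4 Rbpj+/+ animals were AlfpCre- Rbpj flox/flox (Rbpj +/+_1155 and Rbpj +/+_1156, then Rbpj +/+_1024 and Rbpj +/+_991). All 7 animals therefore carried the floxed allele, none was treated, and each array held the liver of 1 animal. The livers of the Rbpj-/- mice were labelled cholestatic, so that loss of Rbpj and cholestasis cannot be told apart, and the labels used here give no sex.

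RBPJ is the DNA-binding protein through which Notch receptors act on transcription, and Notch signalling guides the formation of bile ducts. Coagulation is a cascade of proteases that ends in thrombin, which turns fibrinogen into fibrin, while fibrinolysis dissolves the clot through plasmin. Complement is another cascade, opened by antibody, by lectins or spontaneously on surfaces, that converges on C3 and ends in the membrane attack complex. Hepatocytes secrete most plasma proteins of both cascades. Other cells of the liver make the rest: macrophages are known for C1q, properdin and the A subunit of factor XIII, and endothelial cells for factor VIII, thrombomodulin and tissue factor pathway inhibitor.

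RefSeq promoter windows were found for 35 of the 46 genes. The 250 bases before the start are printed for 3 sets of genes on which the results below turn: the chains of C8, all of which fell, the chains of fibrinogen, of which Fgb and Fgg were called lower and Fga was not called, and C1qb and C1qc, which rose. Coordinates and sequences are from RefSeq on build GRCm38.p6, 5′ to 3′ on the gene's strand. Where the table held more than 1 start for a gene, the one farthest upstream was taken. For C8 and fibrinogen, capitals mark GTTAAT on either strand, the core of the site of the hepatocyte factor HNF1. The windows lie at chr4:104876399-104876648 (minus strand) for C8a, chr4:104766067-104766316 (plus) for C8b, chr2:25501720-25501969 (minus) for C8g, chr3:83025903-83026152 (plus) for Fga, chr3:83049864-83050113 (minus) for Fgb and chr3:83007474-83007723 (plus) for Fgg.
C8a: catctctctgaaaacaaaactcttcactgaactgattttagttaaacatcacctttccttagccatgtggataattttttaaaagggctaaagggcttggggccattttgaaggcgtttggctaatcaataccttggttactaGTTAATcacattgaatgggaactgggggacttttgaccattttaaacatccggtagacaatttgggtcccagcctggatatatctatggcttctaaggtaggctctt
C8b: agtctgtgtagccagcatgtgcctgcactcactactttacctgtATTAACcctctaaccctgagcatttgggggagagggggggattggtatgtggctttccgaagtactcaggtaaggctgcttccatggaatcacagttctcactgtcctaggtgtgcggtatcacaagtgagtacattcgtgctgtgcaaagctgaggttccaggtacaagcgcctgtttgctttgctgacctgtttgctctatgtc
C8g: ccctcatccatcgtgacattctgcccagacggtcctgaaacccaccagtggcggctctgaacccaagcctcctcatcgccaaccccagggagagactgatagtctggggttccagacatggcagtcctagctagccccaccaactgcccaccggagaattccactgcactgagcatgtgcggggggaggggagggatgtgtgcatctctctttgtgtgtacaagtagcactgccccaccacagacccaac
Fga: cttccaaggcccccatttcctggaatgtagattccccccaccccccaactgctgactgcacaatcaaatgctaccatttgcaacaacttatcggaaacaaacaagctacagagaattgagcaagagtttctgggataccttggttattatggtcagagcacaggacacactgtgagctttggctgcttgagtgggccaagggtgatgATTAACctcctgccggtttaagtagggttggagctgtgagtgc
Fgb: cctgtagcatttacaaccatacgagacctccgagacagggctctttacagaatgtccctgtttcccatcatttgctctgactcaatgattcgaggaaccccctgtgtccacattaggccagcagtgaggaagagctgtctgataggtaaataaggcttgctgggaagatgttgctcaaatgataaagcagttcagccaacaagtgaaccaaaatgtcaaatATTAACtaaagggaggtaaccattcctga
Fgg: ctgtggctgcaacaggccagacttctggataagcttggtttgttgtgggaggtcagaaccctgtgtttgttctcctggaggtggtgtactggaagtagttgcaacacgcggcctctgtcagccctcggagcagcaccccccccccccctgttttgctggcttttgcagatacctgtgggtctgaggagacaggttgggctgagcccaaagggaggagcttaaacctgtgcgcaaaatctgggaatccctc

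In the windows of C1qb, at chr4:136886201-136886450, and C1qc, at chr4:136892915-136893164 (both minus strand), capitals mark GAGGAA on either strand, the core of sites of the myeloid factor PU.1.
C1qb: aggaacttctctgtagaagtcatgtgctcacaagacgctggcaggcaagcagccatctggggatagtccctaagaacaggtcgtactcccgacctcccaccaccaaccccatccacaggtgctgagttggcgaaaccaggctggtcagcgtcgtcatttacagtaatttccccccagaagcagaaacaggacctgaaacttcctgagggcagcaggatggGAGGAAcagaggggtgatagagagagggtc
C1qc: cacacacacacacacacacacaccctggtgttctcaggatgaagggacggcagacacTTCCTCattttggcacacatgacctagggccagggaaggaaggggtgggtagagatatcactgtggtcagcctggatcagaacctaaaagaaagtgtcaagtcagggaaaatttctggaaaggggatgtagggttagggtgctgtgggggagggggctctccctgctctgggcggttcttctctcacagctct

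GTTAAT occurred in the windows of 9 of the 35 genes (C8a, C8b, Fga, Fgb, F13b, Hc, Proz, Vtn and Cfp) and in 7.49% of the 27025 genes in the table. The windows of C8g and Fgg held none, although both genes were called lower, and Cfp, which rose, held one. TTGCNNAA, a C/EBP pattern, was found in 8 of the 35 genes against 10.84% of all genes, and TTCNNNGAA, a STAT pattern, in 6 against 8.13%. TGGGAA, the core that RBPJ binds, occurred in 11 of the 35 genes against 24.09% of all genes. Of these 11, F13a1 and Tfpi rose, 8 fell and F9 was not called, while of all 44 tested genes of the list 10 rose and 24 fell. GAGGAA was present in 6 of the 35 genes (C1qb, C1qc, F13a1, F7, Fgb and Tfpi) against 25.85% of all genes, and 4 of the 6 rose. Both strands were read for each pattern. Matches of different patterns overlapped 2 times for TTCNNNGAA with TGGGAA (F9 and Masp2) and 1 time for TTCNNNGAA with GAGGAA (Fgb). These matches describe letters in a window, not binding.

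A spot's intensity is given below as log2 after the 75th percentile of its array was subtracted, so that 0 is the level of that percentile. Values are listed in the order in which the animals of each genotype were named above. The brighter Rbpj probe stood at 0.97, 0.29, 0.33 and 0.81 in Rbpj+/+ and at -0.35, -0.78 and -0.48 in Rbpj-/- liver. It was lower in all 3 Rbpj-/- livers (log2 fold change -1.13, SE 0.24, adjusted p = 0.0115 by limma), although whether it lies in the deleted part is not given in the sources used here. The other Rbpj probe, which the array annotation places on chromosome 6 and not on chromosome 5 as the first, had a log2 fold change of -1.63 (adjusted p = 0.0723) with overlapping genotypes. Arrays Rbpj +/+_1156 and Rbpj -/-_N3 stood apart, with 61.8% and 64.9% of probes well above background against 41.1% to 47.7% on the other 5. The 75th percentile itself was 57.5 to 103 intensity units on the Rbpj+/+ arrays and 118 to 143 on the Rbpj-/- arrays. All arrays shared 1 slide, the Rbpj+/+ arrays in row 1 and the Rbpj-/- arrays in row 2, so that slide row and genotype cannot be told apart.

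Of the 44 tested genes, 10 rose and 24 fell in Rbpj-/- liver in limma (adjusted p below 0.1, Benjamini-Hochberg over all tested probes). Among all 18755 tested genes, 14.6% rose and 19.5% fell. The median log2 fold change of the 44 genes was -0.57, against -0.13 over all tested genes. The 3 Rbpj-/- arrays lay wholly above the 4 Rbpj+/+ arrays for 9 of the genes and wholly below for 23, while 36.6% of all tested genes did not overlap in 1 direction or the other. Of the 63 probes, 58 were tested, 13 rose and 28 fell. With 35 ways to split the 7 animals, the smallest p that an exact two-sided permutation test can give is 0.0286.

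The decreases were large in some genes and modest in most. For 8 genes (C8b, Mbl2, C8g, F11, C6, C8a, Proc and Masp2) the log2 fold change was -1 or below, and all 8 passed under quantile normalization too, with a median of -1.52. The other 16 had values from -0.51 to -0.81 and a median of -0.62, and 6 of these 16 passed under quantile normalization, where their median was -0.25 and Fgb, Fgg and C3 had values above 0. The 10 genes that rose did so under quantile normalization too. Leaving out the scaling, a setting added after the data were seen, raises every gene by the same 0.73 on the log2 scale, so that which decreases cross 0 follows from their size alone. On that scale 6 of the 8 larger decreases passed, with a median of -0.95 (Proc and Masp2 did not pass), against none of the 16 smaller ones in limma, by adjusted p or by an unadjusted p below 0.05 (0 of 16 by either), and 12 of the 16 had values above 0. Quantile normalization gave 12 members higher and 15 lower, against 16.6% higher and 15.2% lower over all genes. With no scaling, 12 members were higher and 6 lower, beside 7720 higher and 446 lower among all genes. The median of all genes then moved from -0.13 to 0.60 with the members' own, which stayed 0.44 below it, against 0.11 below the median of all genes after quantile normalization. When 1 animal was left out, the number of members that fell was 12 without Rbpj -/-_N5, 13 without Rbpj +/+_1024 or Rbpj -/-_N3 and 14 without Rbpj +/+_991. Without Rbpj +/+_1156 and Rbpj -/-_N3 together, 9 rose and 24 fell, and 32 of the 34 calls were kept, F2 (log2 fold change -0.60) and Pros1 (0.36) being the exceptions.

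**Figure D1:**
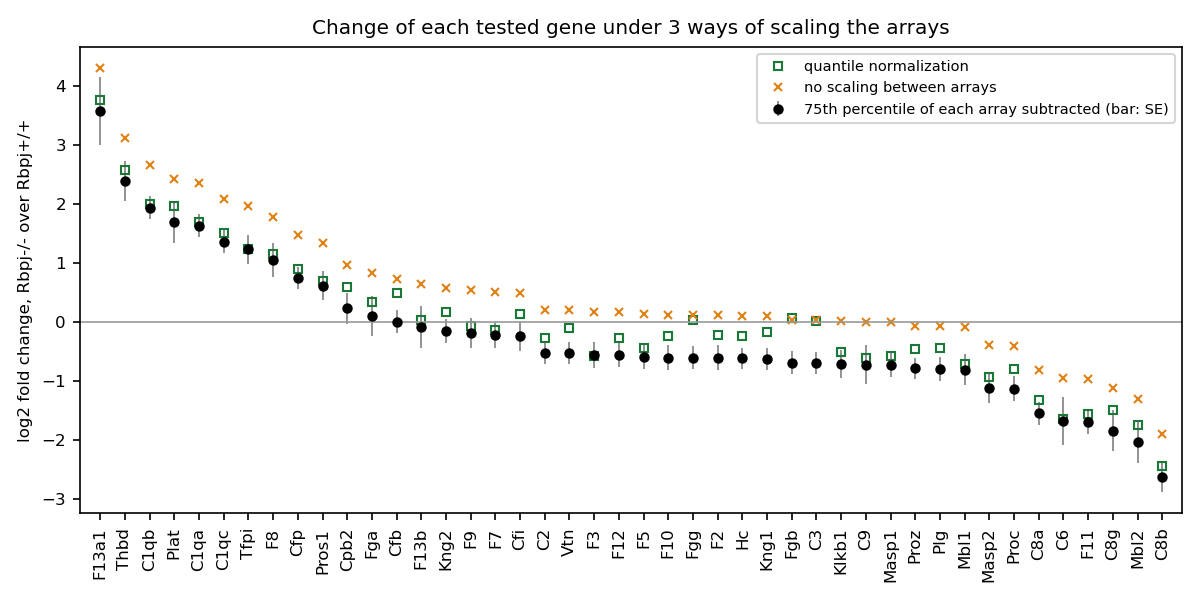
Log2 fold change of Rbpj-/- over Rbpj+/+ (vertical axis) for each of the 44 tested genes (horizontal axis), with the 75th percentile of each array subtracted (black, bars are the standard error), after quantile normalization (green squares) and without scaling (orange crosses). The crosses lie 0.73 above the black points for every gene, which puts 12 of the genes called lower above 0, while the squares of Fgb, Fgg and C3 are above 0 as well.

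A total of 11 genes kept their call and direction in every alternative run that tested them. Those that rose were Tfpi, F13a1, Thbd, C1qa, C1qb and C1qc. Those that fell were F11, Mbl2, C8a, C8b and C8g. F13a1 was tested in 19 runs only, since it dropped out when a probe had to be well above background on all 7 arrays. In whole liver, fewer cells of a type and less RNA per cell cannot be told apart. Hepatocyte markers moved with the modest decreases: 7 of 8 fell (median log2 fold change -0.72, albumin, Alb, -0.78), and their summed level, in multiples of the array's 75th percentile, was 4417 to 5835 in Rbpj+/+ and 2743 to 3264 in Rbpj-/- liver. Under quantile normalization 1 of the 8 fell, with a median of -0.14, and without scaling none did in limma, also by an unadjusted p below 0.05 (0 of 8), 4 of the 8 values being above 0. Macrophage markers moved with the increases: 7 of 10 rose (median 1.34), 9 of 10 at an unadjusted p below 0.05 and none lower by either, the summed level being 114 to 148 in Rbpj+/+ and 388 to 494 in Rbpj-/- liver, and all 10 stayed above 0 under the other 2 scalings. The part of either cell type in the changes below was not tested.

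Coagulation is opened by tissue factor (F3) with factor VII (F7) and held back by tissue factor pathway inhibitor (Tfpi). Tfpi rose on each of its 3 probes. Its brightest probe, at chr2:84273059-84273118 (mm9), gave -0.01, 0.16, -0.02 and -0.11 in Rbpj+/+ and 1.51, 0.68 and 1.53 in Rbpj-/- liver. All Rbpj-/- arrays were above all Rbpj+/+ arrays, and the level was 2.35-fold higher (log2 fold change 1.23, SE 0.24, adjusted p = 0.00962, exact permutation p = 0.0286). The other 2 Tfpi probes gave log2 fold changes of 1.10 and 1.02. F3 stood at -0.55 (SE 0.22, adjusted p = 0.102), just short of the threshold, and it passed in 9 of the 20 alternatives. F7 had a value of -0.22 (adjusted p = 0.497) on its brighter probe and -0.32 on the other, with overlapping genotypes.

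In the contact and intrinsic pathway, where factor XII, prekallikrein and kininogen activate factor XI, which in turn activates factor IX, 4 of 7 genes fell and 1 rose. Under quantile normalization 2 fell and 1 rose, and without scaling 6 of the 7 values were above 0. F11, the zymogen of factor XI, fell most: it stood at 5.58, 5.11, 5.30 and 5.48 in Rbpj+/+ and at 3.42, 3.92 and 3.67 in Rbpj-/- liver. Its genotypes lay more than 1 log2 unit apart, a 3.23-fold decrease (log2 fold change -1.69, SE 0.21, adjusted p = 0.00155) that passed in all 20 alternatives. F12 (-0.55), Klkb1, which encodes prekallikrein (-0.71), and the brighter probe of Kng1, a kininogen (-0.63), passed with smaller changes, and each had a value above 0 without scaling. The second Kng1 probe was not called (-0.25), nor was the close relative Kng2 (-0.15). The array annotation places this second probe on the minus strand, as the Kng2 probe, and nearer to that probe than to the brighter Kng1 probe. Cross-hybridization between these paralogs cannot be told from the arrays.

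F9 encodes the vitamin K-dependent factor IX and was at -0.18 (adjusted p = 0.624). F8, the cofactor of factor IX, was the gene of this pathway that rose. Its probe gave -1.56, -1.10, -1.67 and -1.28 in Rbpj+/+ and 0.29, -0.80 and -0.55 in Rbpj-/- liver. The genotypes did not overlap, and F8 was 2.07-fold higher (log2 fold change 1.05, SE 0.29, adjusted p = 0.0313), with Rbpj -/-_N3 the highest array. The second F8 probe was well above background on 1 array of each genotype and was not tested.

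The common pathway, in which factor X with its cofactor factor V turns prothrombin into thrombin, fell as a group under the 75th percentile scaling, 3 of 3 genes, while 1 of 3 fell under quantile normalization and all 3 values were above 0 without scaling. F2, which encodes prothrombin, stood at 8.55, 8.22, 8.67 and 8.45 in Rbpj+/+ and at 7.71, 7.70 and 8.21 in Rbpj-/- liver. Array Rbpj -/-_2866 nearly reached the lowest Rbpj+/+ array, Rbpj +/+_1156, and the log2 fold change was -0.60 (SE 0.21, adjusted p = 0.0709). F10 (-0.60) and F5 (-0.58) had changes of like size, and the second F5 probe was not called (-0.21).

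Fibrinogen is built of 3 chains encoded by Fga, Fgb and Fgg, which neighbour each other on chromosome 3. Fgb stood at 9.97, 9.76, 10.29 and 9.89 in Rbpj+/+ and at 9.28, 9.39 and 9.21 in Rbpj-/- liver. Fgg stood at 9.70, 9.63, 10.13 and 9.76 in Rbpj+/+ and at 9.10, 9.21 and 9.31 in Rbpj-/- liver. For both chains the genotypes did not overlap (log2 fold changes -0.69 and -0.60, adjusted p = 0.0345 and 0.0554), but under quantile normalization the values were 0.08 and 0.04, neither called. Fga did not pass in any alternative: its brighter probe gave 7.21, 5.91, 6.55 and 6.58 in Rbpj+/+ and 7.19, 6.64 and 6.18 in Rbpj-/- liver. The genotypes overlapped over nearly their whole range (log2 fold change 0.10, SE 0.34, adjusted p = 0.844). Whether the chains differ from each other was not tested.

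Factor XIII, which crosslinks fibrin, joins an A subunit (F13a1) to a B subunit (F13b). F13a1 had the highest log2 fold change of the 44 genes under the 75th percentile scaling, though not after normexp background correction, where the C1q chains and Thbd were above it. It stood at -3.25, -3.63, -3.78 and -2.34 in Rbpj+/+ and at 1.33, 0.81 and -1.17 in Rbpj-/- liver, and 2 of the 4 Rbpj+/+ arrays and all 3 Rbpj-/- arrays were well above background. The level was 11.9-fold higher (log2 fold change 3.57, SE 0.58, adjusted p = 0.00442) with no overlap, although array Rbpj -/-_2866 lay well under the other Rbpj-/- arrays. The size depended on the processing, since the log2 fold change was 1.42 with normexp, 4.32 without Rbpj -/-_2866 and 2.95 without Rbpj +/+_1156 and Rbpj -/-_N3, each still called. Another F13a1 probe was above background on 1 array and was not tested. F13b gave -0.08 (adjusted p = 0.889), with values from 2.97 to 4.57 in Rbpj+/+ liver.

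The protein C system restrains clotting: thrombin bound to thrombomodulin (Thbd) activates protein C (Proc), which with protein S (Pros1) cuts factors V and VIII. Here the receptor rose and the protease zymogen fell. Thbd stood at -1.45, -1.68, -0.81 and -0.78 in Rbpj+/+ and at 1.94, 0.92 and 0.77 in Rbpj-/- liver. Each Rbpj-/- array was above 0 and each Rbpj+/+ array below it, a 5.25-fold increase (log2 fold change 2.39, SE 0.35, adjusted p = 0.00285). The log2 fold change was 1.49 with normexp and 1.86 without Rbpj +/+_1156 and Rbpj -/-_N3, both called. Proc stood at 8.23, 8.11, 8.48 and 8.40 in Rbpj+/+ and at 6.88, 7.21 and 7.45 in Rbpj-/- liver. It was 2.18-fold lower without overlap (log2 fold change -1.12, SE 0.21, adjusted p = 0.00731), and without scaling its value was -0.40 and not called.

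Pros1 passed narrowly (log2 fold change 0.62, adjusted p = 0.0951), with overlapping genotypes, and lost the call in 9 of the 20 alternatives, its adjusted p running from 0.0162 to 0.361 over all of them. Proz, whose product protein Z is a cofactor in the inhibition of factor Xa, fell by 0.78 on the log2 scale (adjusted p = 0.0163) on its brighter probe, a value that was -0.06 without scaling, and the dimmer probe was not called (-0.44). Of the 7 vitamin K-dependent members, F2, F7, F9, F10, Proc, Pros1 and Proz, 4 fell and 1 rose. Of all 44 tested genes, 24 fell and 10 rose. Under quantile normalization F2 (-0.22) and F10 (-0.24) were not called, and without scaling none of the 4 passed as lower.

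In fibrinolysis, plasminogen (Plg) is cut to plasmin by the activators Plat and Plau, and the carboxypeptidase Cpb2 slows the process. Plg stood at 8.25, 7.80, 8.31 and 8.32 in Rbpj+/+ and at 7.45, 7.20 and 7.47 in Rbpj-/- liver. It was 1.74-fold lower (log2 fold change -0.80, SE 0.20, adjusted p = 0.0243) with no overlap, whereas without scaling the value was -0.07 and not called. Plat, the tissue-type activator, rose from a low level: it stood at -3.72, -2.89, -3.52 and -2.91 in Rbpj+/+, where 1 of 4 arrays was well above background, and at -0.76, -1.86 and -2.05 in Rbpj-/- liver, where all 3 were. The increase was 3.25-fold (log2 fold change 1.70, SE 0.35, adjusted p = 0.0116), but 0.23 on the log2 scale and not called after the normexp background correction.

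Plau, the urokinase-type activator, was well above background on none of the 7 arrays and was not tested. Cpb2 had a log2 fold change of 0.23 (adjusted p = 0.537), which became 0.59 and passed as higher under quantile normalization (adjusted p = 0.0588). Vtn, which encodes vitronectin, an adhesive plasma protein, passed with -0.52 (adjusted p = 0.0717) and was at -0.10 after quantile normalization and 0.21 without scaling, neither of them called.

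**Figure D2:**
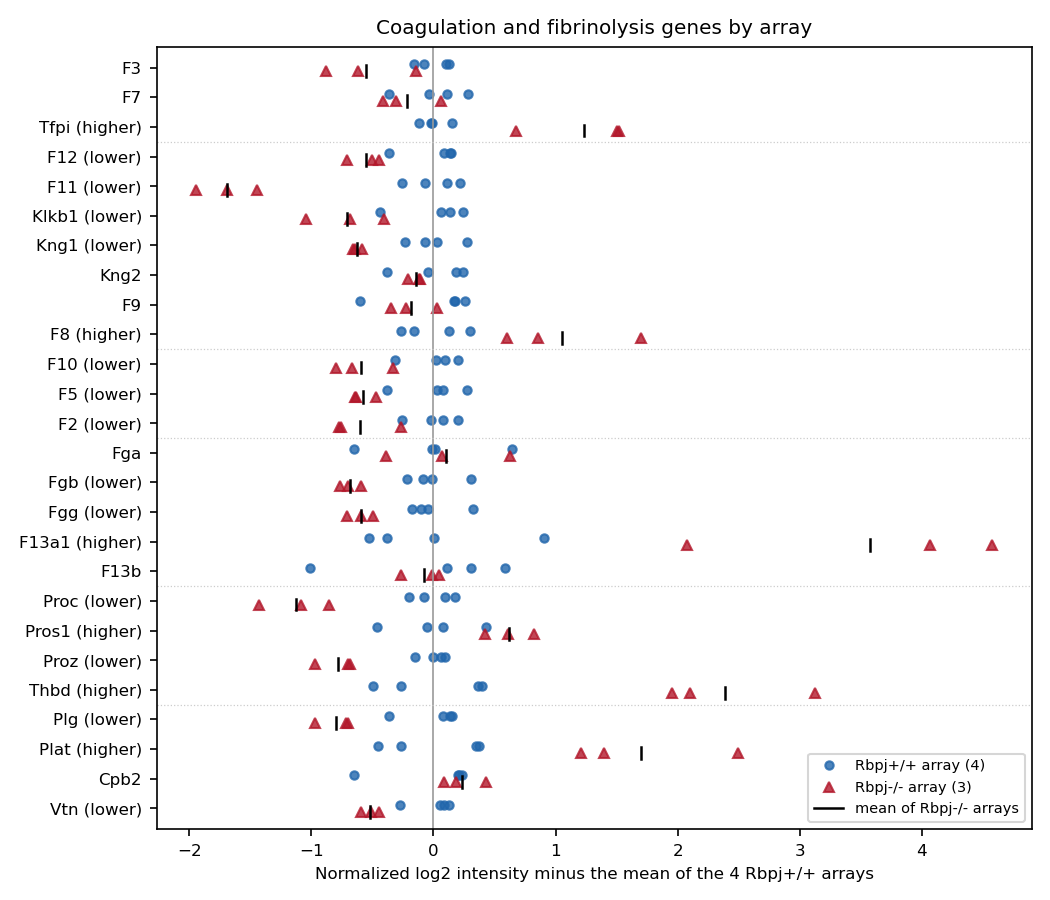
Normalized log2 intensity of each array minus the mean of the 4 Rbpj+/+ arrays (horizontal axis) for the 26 tested genes of coagulation and fibrinolysis (vertical axis, grouped by role). Circles are the 4 Rbpj+/+ arrays, triangles the 3 Rbpj-/- arrays and black ticks the Rbpj-/- mean; F13a1, Thbd, Plat, Tfpi and F8 lie to the right of every circle and F11 and Proc lie to the left by more than 1 in the mean, while smaller shifts to the left, those under 0.73, lie above 0 without scaling.

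Complement members moved 1 way in the lectin and terminal groups only, where every called gene fell. Among classical genes 3 rose and C2 fell. Among alternative and central genes Cfp rose, C3 fell and 2 were not called. In the classical pathway, C1q recognizes antibody on a surface and C2 supplies the protease of the C3 convertase. The 3 chains of C1q, C1qa, C1qb and C1qc, are neighbours on chromosome 4, and all rose, under each scaling. C1qb (probe at chr4:136436578-136436637, mm9) stood at 1.79, 1.83, 1.51 and 2.02 in Rbpj+/+ and at 3.90, 3.74 and 3.55 in Rbpj-/- liver. C1qa stood at 2.24, 2.32, 1.99 and 2.51 in Rbpj+/+ and at 4.00, 3.75 and 3.95 in Rbpj-/- liver. C1qc stood at 3.70, 3.50, 3.72 and 4.03 in Rbpj+/+ and at 5.17, 5.10 and 5.04 in Rbpj-/- liver. For each chain the lowest Rbpj-/- array lay above the highest Rbpj+/+ array by at least the whole range of either genotype.

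The increase was 3.84-fold for C1qb (log2 fold change 1.94, SE 0.20, adjusted p = 0.000722), 3.1-fold for C1qa (1.63, SE 0.19, adjusted p = 0.00135) and 2.58-fold for C1qc (1.36, SE 0.19, adjusted p = 0.00243). The 10 macrophage markers ran from 0.54 (Timd4, not called) to 2.93 (Marco), a range that takes in the 3 chains. C2, the remaining classical member, passed with -0.51 (adjusted p = 0.0838), a value that was -0.26 and not called under quantile normalization and above 0 without scaling.

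The lectin pathway fell under the 75th percentile scaling and under quantile normalization, 4 of 4 genes, with medians of -0.96 and -0.81, while without scaling 1 of 4 fell and the median was -0.24. Its recognition molecules are the mannose-binding lectins Mbl1 and Mbl2, which carry the proteases encoded by Masp1 and Masp2. Mbl2 (probe at chr19:30314044-30314103, mm9) stood at 8.28, 7.89, 8.01 and 8.13 in Rbpj+/+ and at 5.26, 5.91 and 6.98 in Rbpj-/- liver. The Rbpj+/+ arrays lay close together and the Rbpj-/- arrays were spread widely below them, Rbpj -/-_N3 lowest. The decrease was 4.08-fold (log2 fold change -2.03, SE 0.36, adjusted p = 0.00652), and it passed in all 20 alternatives.

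Masp2 stood at 6.00, 5.86, 6.32 and 6.27 in Rbpj+/+ and at 4.83, 4.67 and 5.48 in Rbpj-/- liver on its brightest probe. Its 3 probes agreed, with log2 fold changes of -1.12, -1.03 and -1.01, and the brightest gave a 2.17-fold decrease without overlap (adjusted p = 0.0138), reduced to -0.39 and not called without scaling. Mbl1 passed with -0.81 (adjusted p = 0.0545). Masp1 passed with -0.73 on its brightest probe (adjusted p = 0.0324), but the second was not called (-0.28) and the dimmest rose by 0.77 on the log2 scale (adjusted p = 0.0512). The 3 Masp1 probes therefore disagree in direction, and their mean, -0.08, was not called.

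C3 is the hub on which all complement pathways meet, and the alternative pathway amplifies its cleavage through factor B (Cfb), factor D (Cfd) and properdin (Cfp), with factor I (Cfi) as a brake. C3 stood at 10.26, 10.18, 10.64 and 10.33 in Rbpj+/+ and at 9.54, 9.65 and 9.79 in Rbpj-/- liver. The genotypes did not overlap on this probe (log2 fold change -0.69, SE 0.19, adjusted p = 0.0323), yet the second C3 probe was at -0.17 and not called, and the first was at 0.02 after quantile normalization. Cfb was nearest to no change at 0.01 (adjusted p = 0.983), but at 0.49 it passed as higher under quantile normalization (adjusted p = 0.0406).

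Cfp was the alternative pathway gene that rose: it was 1.68-fold higher (log2 fold change 0.75, SE 0.19, adjusted p = 0.0224), all 3 Rbpj-/- arrays, from 5.03 to 5.23, lying above the Rbpj+/+ range of 4.13 to 4.58. Cfi was at -0.23 (adjusted p = 0.529) and overlapped. Cfd, known mainly from fat, was well above background on 1 array of each genotype and was not tested.

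The terminal components build the membrane attack complex from C5 (Hc), C6, the 3 chains of C8 and C9. Of these 6 genes, 5 fell. They held the largest decrease, that of C8b, while those next in size included Mbl2 (-2.03) and F11 (-1.69) of other pathways. Under quantile normalization 4 of 6 fell, as without scaling, where Hc and C9 had values above 0. C8b (probe at chr4:104477094-104477153, mm9) stood at 7.06, 6.40, 6.97 and 6.86 in Rbpj+/+ and at 3.87, 4.14 and 4.57 in Rbpj-/- liver. The genotypes were nearly 2 log2 units apart at their closest, and the decrease of 6.18-fold was the largest of any member (log2 fold change -2.63, SE 0.24, adjusted p = 0.000487). C8g stood at 8.71, 8.66, 9.21 and 9.28 in Rbpj+/+ and at 6.54, 6.91 and 7.94 in Rbpj-/- liver. It was 3.57-fold lower (-1.83, SE 0.34, adjusted p = 0.00767), and the dimmer probe gave -1.41. C8a stood at 7.14, 6.59, 6.92 and 6.75 in Rbpj+/+ and at 5.31, 5.27 and 5.34 in Rbpj-/- liver.

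The 3 Rbpj-/- values of C8a lay close together, and C8a was 2.91-fold lower (log2 fold change -1.54, SE 0.19, adjusted p = 0.00173), while its dimmer probe fell by 0.56 on the log2 scale. C8a and C8b are neighbours on chromosome 4, whereas C8g lies on chromosome 2, as the windows above show. C6 stood at 2.47, 2.35, 3.22 and 4.08 in Rbpj+/+ and at 1.27, 1.06 and 1.74 in Rbpj-/- liver. It varied most among the Rbpj+/+ arrays of these genes (SD 0.80), and it was 3.18-fold lower without overlap (-1.67, SE 0.41, adjusted p = 0.0214). Hc passed with -0.61 (adjusted p = 0.0413). C9 was at -0.72 (SE 0.33, adjusted p = 0.144), and it passed as lower without Rbpj +/+_1156 (-0.94), without that array and Rbpj -/-_N3 (-1.10) and with array weights (-1.05).

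**Figure D3:**
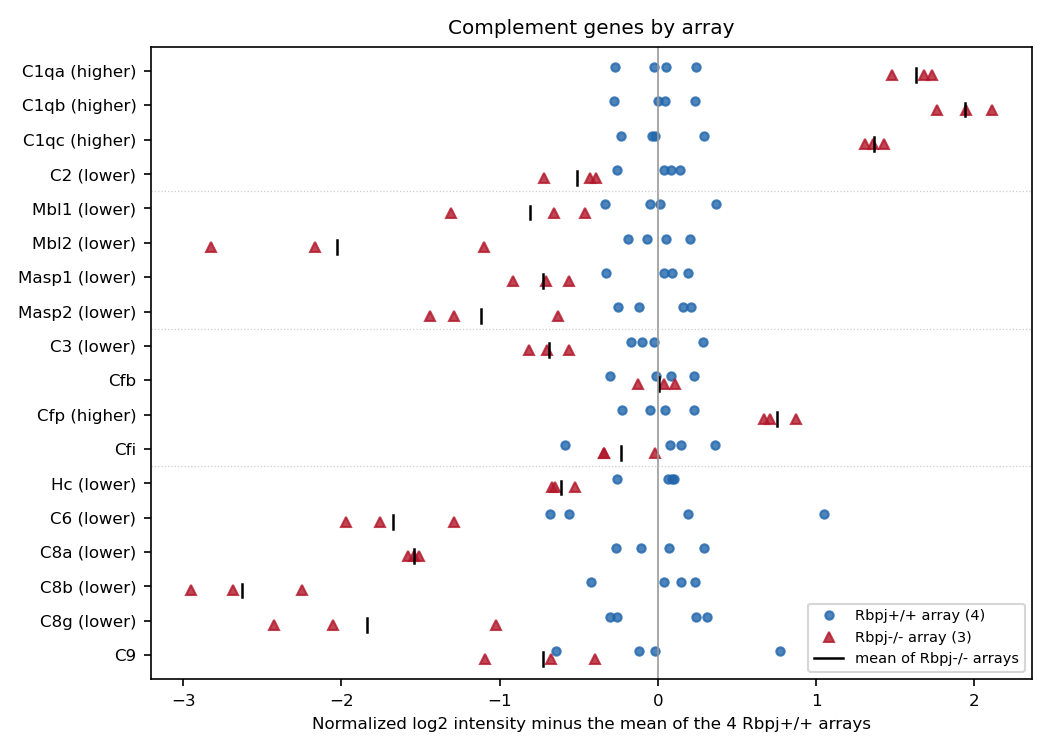
Normalized log2 intensity of each array minus the mean of the 4 Rbpj+/+ arrays (horizontal axis) for the 18 tested complement genes (vertical axis, grouped by pathway), with circles for Rbpj+/+ arrays, triangles for Rbpj-/- arrays and black ticks for the Rbpj-/- mean. The 3 C1q chains lie to the right of every circle, and C8b, Mbl2, C8g, C6 and C8a lie at least 1 to the left, also after quantile normalization, whereas C3 and Hc, nearer 0, had values above 0 without scaling.

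Among 68 other genes of the 2 cascades, receptors, regulators, inhibitors and enzymes, 66 were on the array and 55 were tested. Of these 14 rose and 14 fell, with a median log2 fold change of -0.03 (quantile normalization: 17 rose, 6 fell, median 0.14; no scaling: 27 rose, 2 fell, median 0.70). The 10 with the largest change included 8 that rose. Plaur, the urokinase receptor, had a log2 fold change of 3.21 (SE 0.66), and Procr, the endothelial protein C receptor, 1.52. Anxa2, a plasminogen-binding annexin, rose by 2.63 and Vwf, von Willebrand factor, by 1.96. Fgl2, a fibrinogen-like prothrombinase, was well above background on no Rbpj+/+ array and on all 3 Rbpj-/- arrays, and it was at least 3.54-fold higher, the brighter mean being set against the lowest signal well above background (adjusted p = 0.00251).

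The anaphylatoxin receptors C5ar1 (2.43, overlapping genotypes) and C3ar1 (1.57) rose, as did the integrin chain Itgax (1.62), whereas Adamts13, the protease that trims von Willebrand factor, fell (-1.84). The probes of the integrin chain Itgam disagreed: the brightest fell (-1.54), and another stood at 0.95 and was not called. The classical proteases C1ra (-0.75) and C1s (0.36) were not alike: the first fell and the second was not called. C4b was not called (-0.42). The list of inhibitors of coagulation and fibrinolysis also held Plaur, Anxa2 and S100a10, which are not inhibitors. Of its 11 tested genes 6 fell, while Plaur and Anxa2 rose. Those that fell were Serpinc1, antithrombin (-0.60), Serpinf2 (-0.68) and the close paralogs Serpina1a, Serpina1c, Serpina1d and Serpina1e (-0.73 to -0.88). Of the complement regulators 11 of 13 were not called.

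**Figure D4:**
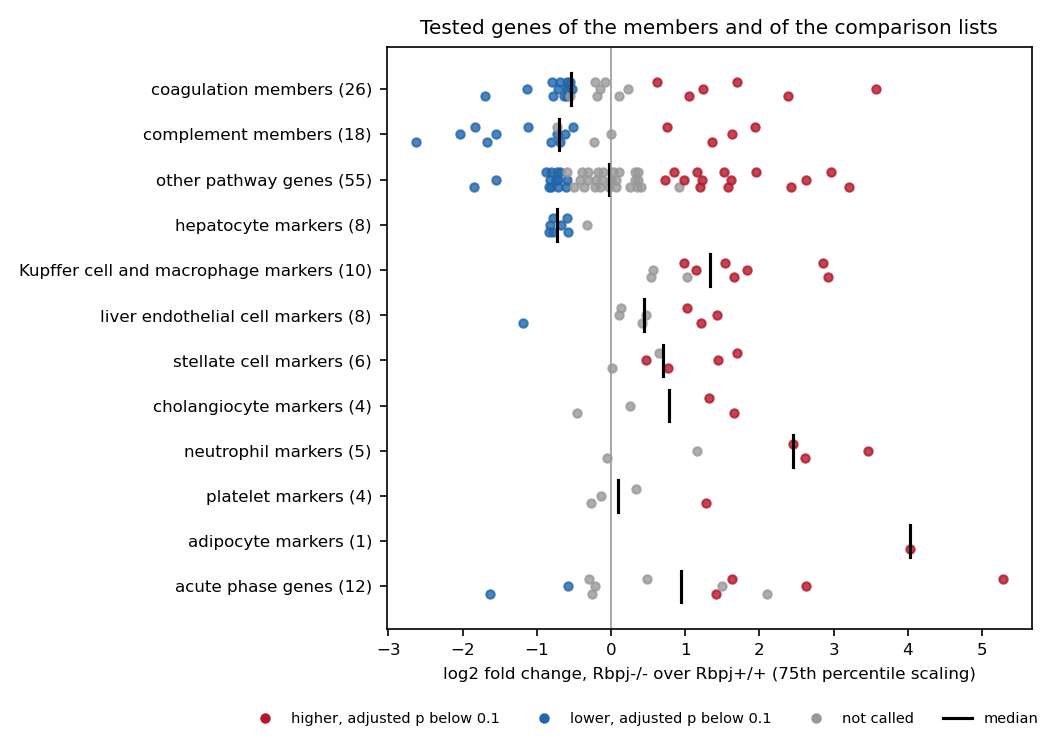
Log2 fold change of Rbpj-/- over Rbpj+/+ (horizontal axis, 75th percentile scaling) for the tested genes of each list (vertical axis, number tested in brackets), red for higher, blue for lower and grey for not called at an adjusted p below 0.1, with a black bar at the median. The hepatocyte markers run from -0.83 to -0.32. Their median of -0.72, which was -0.14 under quantile normalization, lies in the range of the modest member decreases, and the macrophage markers lie to the right with a median of 1.34.

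The other lists of cell markers were as follows. Of the liver endothelial markers 3 of 8 rose (Clec4g, Cdh5 and Fcgr2b), 4 were not called and Kdr fell on its brighter probe (-1.19) but not on the other (0.01), the summed level being 57.2 to 82.7 in Rbpj+/+ and 90.2 to 141 in Rbpj-/- liver. Of the stellate cell markers 4 of 6 rose (12.8 to 21.3 against 27.9 to 49.7), and of the neutrophil markers 3 of 5 (4.08 to 22.7 against 32.0 to 68.9). Of the cholangiocyte markers 2 of 4 tested rose (2.50 to 3.58 against 4.38 to 10.9), with Epcam not tested. These were Spp1 (1.66), which made up most of the sum in Rbpj-/- liver, and Sox9 (1.32, overlapping genotypes). The keratins Krt19 (0.25) and Krt7 (-0.45) were not called. Under quantile normalization 1 of the 4 cholangiocyte markers rose. Pf4 alone rose among the 4 tested platelet markers (2.23 to 4.98 against 6.02 to 8.43). Of the adipocyte markers only Cidea was tested. It was well above background on no Rbpj+/+ array and on all 3 Rbpj-/- arrays and was at least 10.3-fold higher (adjusted p = 0.00174), while Adipoq, Plin1, Lep and Retn were near or below background. Most stellate cell and macrophage markers thus rose along with F8, Thbd, Tfpi and C1q, as did 3 of the 8 endothelial markers, and their part in those increases was not tested.

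Acute phase genes, which hepatocytes raise in inflammation and to which fibrinogen, C3 and Cfb are usually counted, did not move as 1 group. Lcn2 (5.28), Saa1 (2.64), Orm2 (1.64) and Orm1 (1.41) rose, Hp (-0.58) and Hamp (-1.62) fell, and the other 6 of 12 were not called, with a median of 0.95 over the 12. Under quantile normalization 5 rose and none fell by adjusted p in limma, 1 being lower at an unadjusted p below 0.05.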

How the data were processed

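Total RNA of whole liver from 7 mice was labelled with Cy3 and hybridized to 1-colour Agilent arrays, 1 animal per array. The authors deposited scanner output of Agilent Feature Extraction 10.7.3.1: a background-subtracted intensity, the mean intensity and local background of each spot, and quality marks of 0 or 1, here given the unit other. Their methods describe a geometric mean over repeated probes, log2, a shift to the 75th percentile and a baseline shift, and the deposited value table holds log2 values centred on each probe. Those values follow quantile-normalized intensities far more closely than percentile-shifted ones (correlation with the first at least 0.99998 on each array), so that table was used as an alternative.

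Spots marked non-uniform or population outliers were left out, which touched no member, repeated spots were averaged as log2 values, and each array was shifted by its 75th percentile. The 24548 probes tested were positive, significant and well above background throughout at least 1 genotype. limma 3.58.1 in R 4.3.3 (lmFit, eBayes) gave log2 fold changes, standard errors and p-values, adjusted by Benjamini-Hochberg over all tested probes, with 0.1 as the threshold as in the methods. Their shrinkage t was not run, because its false discovery rate needs many regroupings of the animals. The fit was tested on simulated data first. Each gene is represented by its brightest tested probe, and no probe's level is set against another's, apart from sums over a list. Precision is limited by the number of arrays, 4 and 3. The 20 alternatives changed background correction, scaling, filters, variance model, threshold, probe choice or the animals, and no scaling between arrays was added after the data were seen. All arrays lay on 1 slide, so the slide as a block could not be fitted. Animal numbers are not shared between genotypes, and no paired analysis was possible because of this.

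Array names of the members matched RefSeq by accession for 60 of 63 probes and by symbol for 3. Probe coordinates are those of the array annotation (mm9), and promoter windows are on GRCm38.p6. Members and lists were chosen with earlier results of these data known. Every member is named; values of each array are given for members past the threshold with an absolute log2 fold change of at least 1 and for F2, Fga, Fgb, Fgg, Plg, C3 and the C1q chains, and other pathway genes are named when they pass with a change of at least 1, at most 10, a few more being named after their values were seen. A gene of that list is not reported here.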

Additional observations from a re-analysis of the deposited data

Results flagged for a closer look

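In the 4 Rbpj+/+ arrays of each of the 44 tested genes, the gap between an extreme array and its nearest neighbour was divided by the range of the group (Dixon's ratio). The ratio was above its critical value for 5 genes. For a single gene, chance gives about 1 in 20, but the 44 genes share the same 4 arrays, so the flags are not independent. In all 5 the array was Rbpj +/+_1156 and its value was the lowest: Cpb2 (ratio 0.968), F9 (0.900), Hc (0.898), F12 (0.885) and Plg (0.860). The same array had brighter dim probes than the other Rbpj+/+ arrays, with 61.8% of probes well above background, and whether this bears on the 5 values was not tested. Without that array, 33 of the 34 called members kept their call and 26 members were lower.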

How the results depend on the processing

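The count of members that fell depended most on the processing: it was 24 as reported, 15 with normexp, quantile normalization or a threshold of 0.05, 14 with the deposited log2 table, 6 without the filter on dim probes (where 6 rose) and 6 without scaling. Leaving out 1 animal gave 12 to 26 members lower and 9 to 10 higher, with a median from -0.66 to -0.51. The members' median was -0.28 with normexp, -0.15 with quantile normalization, -0.14 with the deposited table and, reversed, 0.16 without scaling. Signs turned for Fgb (0.0796), Fgg (0.0431) and C3 (0.0224) under quantile normalization, for Fgb (0.0742), Fgg (0.0587) and C3 (0.0853) in the deposited table, and without scaling for F12 (0.18), Klkb1 (0.018), Kng1 (0.10), F10 (0.13), F5 (0.15), F2 (0.13), Fgb (0.0405), Fgg (0.13), Vtn (0.21), C2 (0.21), C3 (0.037) and Hc (0.11), none of them called there. Of the other pathway genes, 14 higher and 14 lower as reported, 6 were lower with quantile normalization and with the deposited table, 9 were higher and 1 lower without the filter, 27 higher and 2 lower without scaling, and 12 to 15 higher and 5 to 20 lower when 1 animal was left out. The causes of these changes were not tested, other than that no filter tests more probes (35666 genes) and that leaving out the scaling raises every gene alike by 0.73 on the log2 scale. Of the 34 calls, 34 were kept with limma-trend, array weights, marked spots kept or the percentile over bright probes, and 30 with the mean of a gene's probes, and all 32 tested when a probe had to be above background on all 7 arrays. Weak signal limits F13a1 and Plat, which were above background on 2 and 1 of the 4 Rbpj+/+ arrays, and Plau and Cfd, which were not tested.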
